A study of Mus musculus with 3 samples.

Results

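The lysosomal module comprised 37 named mouse genes for cathepsins and other hydrolases of the lysosome, for the lipid-handling proteins that work beside them and for proteins of the lysosomal membrane. A listed gene was a member when its symbol was in the gene table and it had at least 20 unique molecular identifiers (UMIs, each standing for 1 captured transcript) over the 3 libraries. By this rule 36 of the 37 were members, out of 27998 genes in all. The exception was Ctse, the aspartic protease cathepsin E, with 15 UMIs in all. By role the list held 8 cysteine proteases, 4 other proteases, 8 proteins of lipid handling, 7 glycosidases, 6 membrane proteins and 4 other proteins of the lumen.

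The lysosome is an acidic organelle in which proteins, lipids, glycans and nucleic acids delivered by phagocytosis, endocytosis or autophagy are broken down. In dendritic cells and macrophages the same enzymes trim antigens and remove the invariant chain from MHC class II molecules, a step in which cathepsin S has a leading role. Macrophages are known for a higher content of lysosomal proteases than dendritic cells. Toll-like receptors 7 and 9, the receptors for R848 and for CpG DNA in mice, sit in endolysosomal membranes, and proteases of this compartment cleave them into their active form.

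Peyer's patches are lymphoid tissue in the wall of the small intestine. Conventional dendritic cells (cDC1 and cDC2), lysozyme-expressing dendritic cells (LysoDC) and macrophages were sorted live from CD11c-enriched cells of female C57BL/6Rj mice and profiled by droplet single-cell RNA sequencing of transcript 3′ ends. The CpG library came from 85 patches of mice given 125 µg of CpG intraperitoneally 9 h earlier, and the R848 library from 90 patches of mice given 10 µg of R848 intraperitoneally 9 h earlier. The Control library came from 88 patches of untreated mice, which were not mock-injected. Each library pooled 12 mice, so each condition was 1 sample, no test between conditions was possible, and intervals given here cover counting error only. No age is stated for the mice.

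After filtering, 4821 CpG, 4898 R848 and 5079 Control cells were kept, and the libraries held 43767864, 46556726 and 43537067 UMIs over all deposited barcodes. Between 33 and 42 cell barcodes were shared by any 2 libraries. Clusters were built in each library without the module's genes and named from marker genes, so the classes are to be read as cDC1-like, cDC2-like and so on. Resting cDC1 numbered 473 cells and were found in Control alone. Resting cDC2 numbered 381 CpG, 382 R848 and 1868 Control cells. Mature dendritic cells, marked by Ccr7 and Fscn1, numbered 2306 CpG, 2104 R848 and 541 Control cells. Lysozyme-high phagocytes, marked by Lyz1 and C1qa, were split by Cd4 into a Cd4-negative class of 704 CpG, 1254 R848 and 1079 Control cells and a Cd4-positive class of 485 CpG, 657 R848 and 733 Control cells. All 12 cDC1 markers reached 20 CPM in resting cDC1, where Xcr1 stood at 656 CPM against 2.81 CPM in Control resting cDC2. The 8 B cell markers summed to between 16.8 and 37.2 CPM in the dendritic cell classes and to between 126 and 221 CPM in the phagocytes, where Cd79b alone gave 120 to 216 CPM. The T or NK cell markers summed to 146 CPM with CpG, 151 CPM with R848 and 70.9 CPM in Control in mature dendritic cells, nearly all from Il7r, and to at most 27.6 CPM in the other classes. Because the cells had been sorted, these numbers describe the sort as well as the tissue. For each class and library, UMIs were added up and scaled to CPM, so that all genes of a class add up to 1000000. A UMI marks 1 end of a transcript, so levels were not divided by transcript length. Free RNA shared by all droplets was estimated from complement genes in mature dendritic cells at 2.46% of the library's level with CpG, 2.51% with R848 and 4.51% in Control.

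The lysosomal genes took the largest share of the transcriptome in the Cd4-positive phagocytes of each library. Their summed share of UMIs there was 3.80% with CpG, 3.59% with R848 and 3.63% in Control. In Cd4-negative phagocytes it was 2.97% with CpG, 2.85% with R848 and 2.71% in Control. Resting cDC1 of the Control library stood between the phagocytes and the other dendritic cells at 1.81%. Resting cDC2 gave 1.31% with CpG, 1.33% with R848 and 1.25% in Control, and mature dendritic cells gave 0.928% with CpG, 1.16% with R848 and 1.12% in Control. The order of the classes was thus the same in the 3 libraries. Over whole libraries the share was 1.94% with CpG, 2.27% with R848 and 2.16% in Control.

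**Figure D1:**
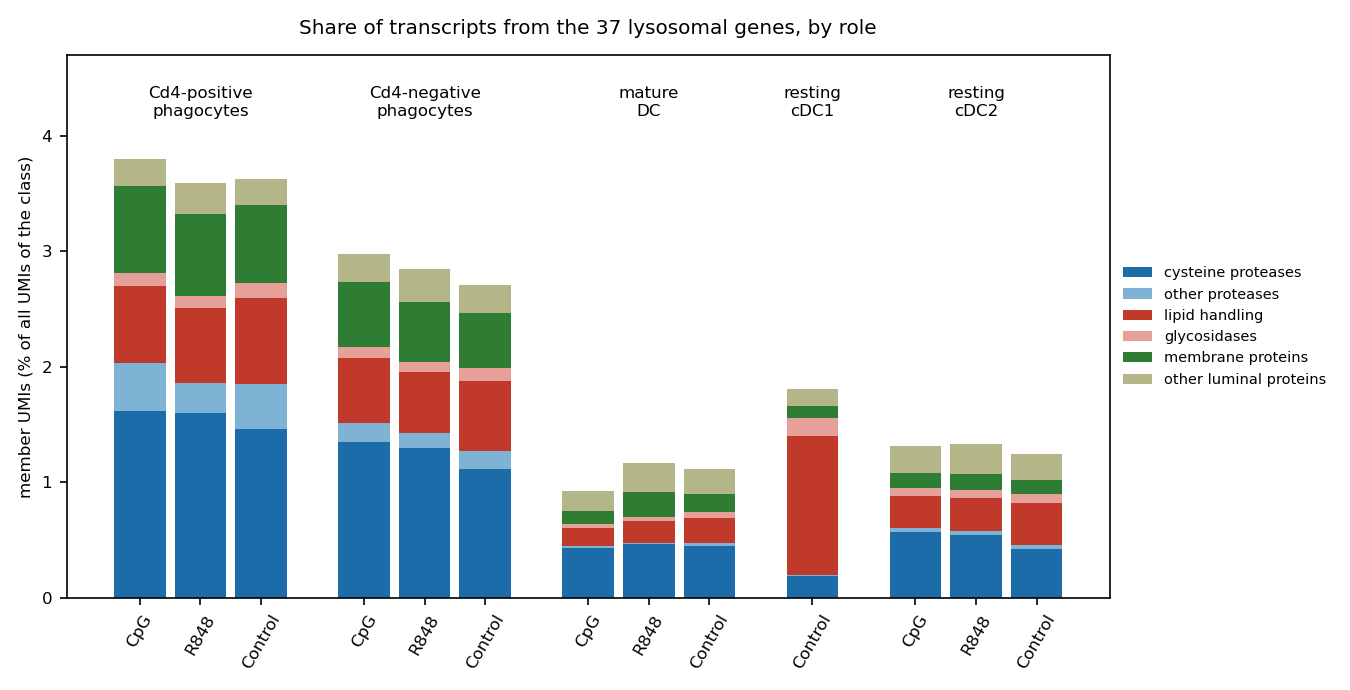
Summed share of the module's genes (% of all UMIs of the class, stacked by role) in each class and library, with sums given below in CPM. Cysteine proteases make up the largest block in both phagocyte classes, from 11158 CPM in Control Cd4-negative to 16204 CPM in CpG Cd4-positive cells, whereas lipid handling makes up 11986 CPM in resting cDC1.

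The roles were weighted differently by class. Cysteine proteases summed to 16204 CPM with CpG, 16008 CPM with R848 and 14615 CPM in Control in Cd4-positive phagocytes. In resting cDC1 they summed to 1885 CPM, below the 4234 CPM of Control resting cDC2. Lipid handling was the main role in resting cDC1, at 11986 CPM against 3616 CPM in Control resting cDC2. The sum of the other proteases, of which cathepsin D is the main one, was 4134 CPM with CpG, 2572 CPM with R848 and 3904 CPM in Control in Cd4-positive phagocytes. In mature dendritic cells that sum was 122 CPM with CpG, 79.8 CPM with R848 and 223 CPM in Control.

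**Figure D2:**
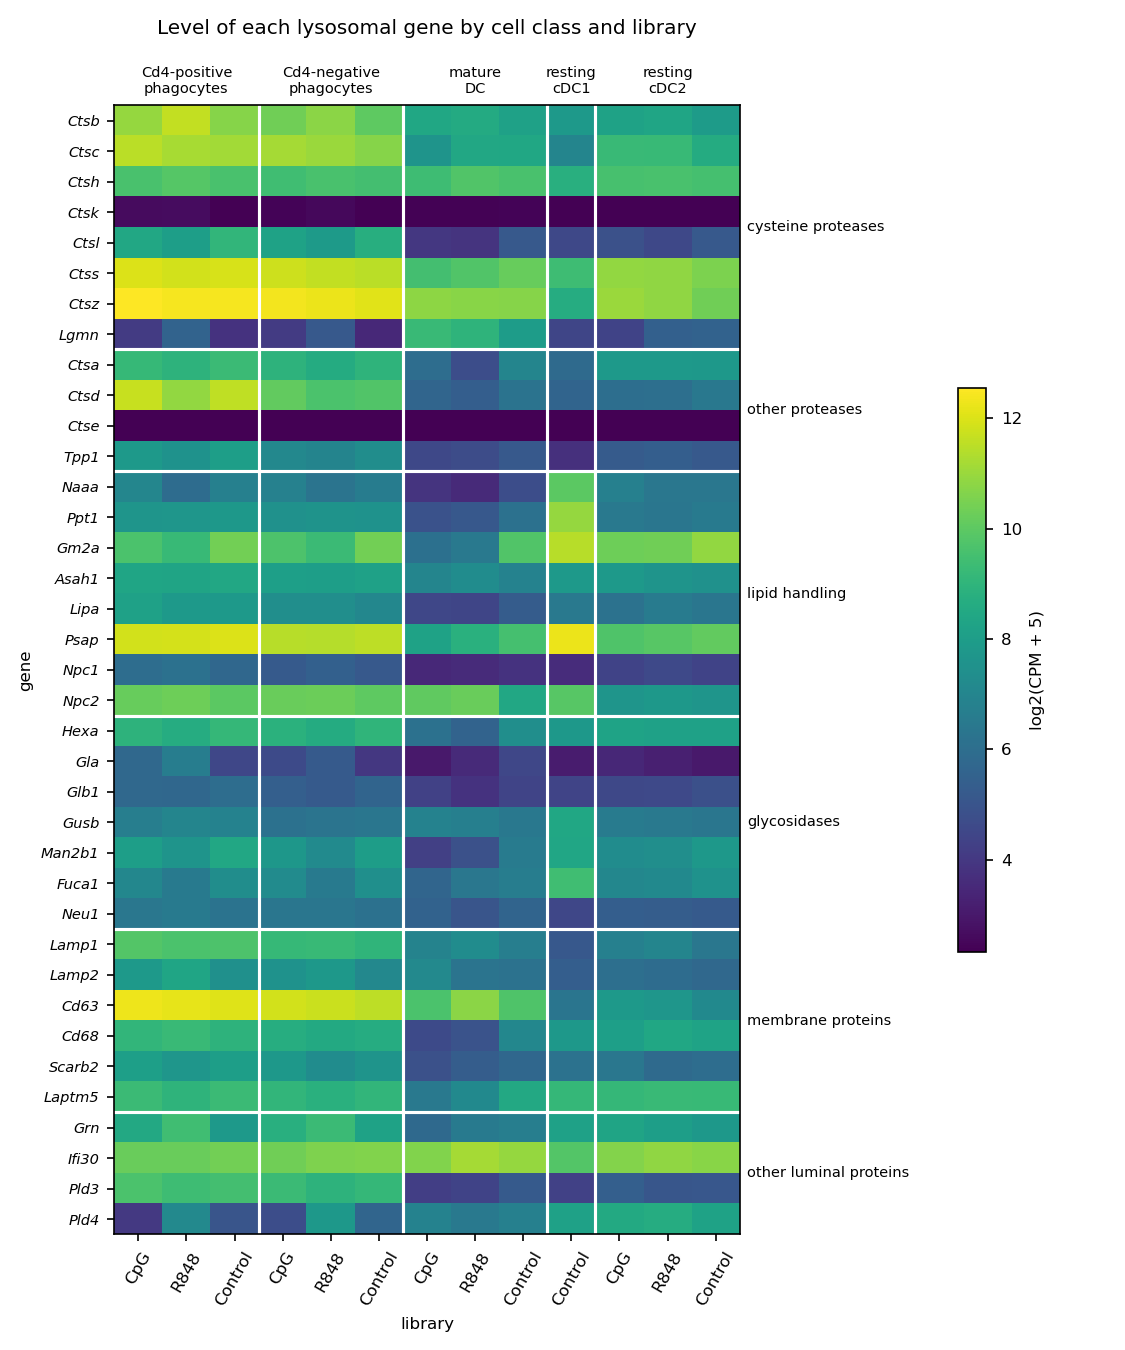
Level of each listed gene as log2(CPM + 5), by colour from dark (low) to yellow (high), with genes in rows grouped by role and libraries in columns grouped by class. Cathepsins, Cd63 and Pld3 are brightest in the phagocytes, and Psap, Gm2a, Ppt1 and Naaa are brightest in or near resting cDC1.

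Phagocytes carried more transcript of most proteases and membrane proteins than resting cDC2. Of 34 members measured (at least 20 CPM and 20 UMIs in the higher class), 15 were at least 2-fold higher and 2 at least 2-fold lower in Control Cd4-negative phagocytes than in Control resting cDC2. Of all genes measured, 10.3% were that much higher and 9.37% that much lower. All fold limits were applied to the ratio of CPM + 5, which understates differences of low genes. The members' median log2 ratio was 0.88, against -0.18 over all measured genes. The same contrast gave 16 higher and 1 lower with CpG, where 10.6% of all genes were higher and 10.4% lower, and 16 higher and 1 lower with R848, where 12% were higher and 10.2% lower.

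Cd63, a tetraspanin of late endosomes and lysosomes, stood at 3723 CPM with CpG, 3445 CPM with R848 and 2986 CPM in Control in Cd4-negative phagocytes. In resting cDC2 it stood at 224 CPM with CpG, 205 CPM with R848 and 138 CPM in Control, so the phagocytes were higher in all libraries, by 21.6-fold in Control (95% interval 20.5 to 22.7). The Control cDC2 value was under 2 times the estimated free-RNA level. Pld3, a 5′ exonuclease of the lysosomal lumen, had 620 CPM with CpG, 485 CPM with R848 and 563 CPM in Control in Cd4-negative phagocytes. Its resting cDC2 levels were 37.4 CPM with CpG, 28.8 CPM with R848 and 29.2 CPM in Control. Cathepsin L (Ctsl), a cysteine endopeptidase, was 13.5-fold higher in Control Cd4-negative phagocytes than in resting cDC2 (12.1 to 15), and cathepsin D (Ctsd), the main aspartic protease of lysosomes, was 10.6-fold higher (9.97 to 11.4). Lamp1, a major glycoprotein of the lysosomal membrane, had 513 CPM in Control Cd4-negative phagocytes against 77.6 CPM in Control resting cDC2. Cathepsin Z (Ctsz), a carboxypeptidase, had 5362 CPM with CpG, 4948 CPM with R848 and 4423 CPM in Control in Cd4-negative phagocytes, against 2076 CPM with CpG, 1838 CPM with R848 and 1298 CPM in Control in resting cDC2. Cathepsin S (Ctss) was 1.94-fold higher in Control Cd4-negative phagocytes and did not pass the limit.

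The exceptions in the Control library were Pld4 and Lgmn. Pld4, the second 5′ exonuclease of this family, had 45.9 CPM in Cd4-negative phagocytes against 295 CPM in resting cDC2, a level 6.43-fold lower (5.87 to 7.06). Pld3 and Pld4 thus ran in opposite directions between these 2 classes. Lgmn, the asparaginyl endopeptidase legumain, had 6.32 CPM in Cd4-negative phagocytes against 42.0 CPM in resting cDC2.

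Ctsd was the only member past the limit between the phagocyte classes of the Control library. It had 3022 CPM in Cd4-positive cells against 867 CPM in Cd4-negative cells, 3.49-fold higher (3.40 to 3.57). Of 33 members measured there, 1 was higher and none lower, beside 2.42% of all genes higher and 1.38% lower. With CpG, Ctsd had 3338 CPM in Cd4-positive against 1079 CPM in Cd4-negative cells, and with R848 it had 1897 CPM against 813 CPM. The Control Cd4-positive class held a cluster of 52 cells with interferon-induced leading genes in which Ctsd was at 1329 CPM, against 3152 CPM in its main cluster. Gla, alpha-galactosidase A, which removes galactose from glycolipids, joined Ctsd in both treated libraries. It had 50.1 CPM in Cd4-positive against 19.4 CPM in Cd4-negative cells with CpG, and 97.0 CPM against 31.8 CPM with R848. In these libraries 2 of 34 (CpG) and 2 of 35 (R848) members were higher and none lower, where 2.22% and 1.94% of all genes were higher and 1.34% and 2.38% lower. Most members lay slightly higher in Cd4-positive cells, with 28 of 34 above a log2 ratio of 0 with CpG, 31 of 35 with R848 and 28 of 33 in Control. No share of all genes above 0 is given beside these counts. The members' median log2 ratios were 0.27 with CpG, 0.33 with R848 and 0.31 in Control. Over all measured genes the medians were 0.05 with CpG, 0.07 with R848 and -0.005 in Control.

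Promoters were read for short sequence motifs. The sequences are RefSeq's for GRCm38.p6, 250 bases before to 50 bases after a gene start, and 32 of the 37 listed genes were in the table, with 35 promoters. The E-box CACGTG, which reads the same on both strands, was in a promoter of 8 of these 32 genes (25%): Ctsl, Lgmn, Ctsa, Ctsd, Gla, Glb1, Lamp1 and Ifi30. It was in 8.09% of the 27025 genes of the whole table and in 7.15% of its 32851 promoters. The longer TCACGTG, searched on both strands and holding the E-box, was in 7 of the 32 genes (21.9%) and in 4.29% of all genes of the table. The full palindromic element of the lysosomal gene network (CLEAR), which holds the E-box, was in none of the 32 and in 0.370% of all genes of the table. A match is a description of letters and was not tested for binding. The 4 promoters below are picked examples from members past the limit in a comparison, and they hold the E-box more often than the members as a whole. Gm2a, Cd63, Naaa and Npc2, also past the limit in comparisons, had no E-box in this window and are not printed. Capitals mark each CACGTG.
Lamp1 promoter, chr8:13158911-13159210, plus strand: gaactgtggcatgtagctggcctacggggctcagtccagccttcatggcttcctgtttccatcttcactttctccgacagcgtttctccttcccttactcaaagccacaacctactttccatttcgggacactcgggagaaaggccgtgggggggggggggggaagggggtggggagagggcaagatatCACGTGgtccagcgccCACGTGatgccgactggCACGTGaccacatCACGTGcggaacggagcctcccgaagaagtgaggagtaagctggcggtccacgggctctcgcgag
Ctsd promoter, chr7:142387778-142388077, minus strand: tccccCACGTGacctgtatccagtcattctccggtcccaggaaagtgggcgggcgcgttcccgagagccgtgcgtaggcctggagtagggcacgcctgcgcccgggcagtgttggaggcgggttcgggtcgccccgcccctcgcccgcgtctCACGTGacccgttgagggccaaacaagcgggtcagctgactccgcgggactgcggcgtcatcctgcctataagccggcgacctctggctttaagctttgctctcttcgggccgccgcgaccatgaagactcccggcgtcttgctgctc
Gla promoter, chrX:134600956-134601255, minus strand: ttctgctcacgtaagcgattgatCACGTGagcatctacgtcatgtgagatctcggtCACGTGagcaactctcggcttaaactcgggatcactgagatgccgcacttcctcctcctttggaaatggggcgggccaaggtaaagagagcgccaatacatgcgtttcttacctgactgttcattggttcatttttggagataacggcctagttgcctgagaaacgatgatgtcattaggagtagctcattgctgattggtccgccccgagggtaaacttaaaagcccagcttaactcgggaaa
Pld4 promoter, chr12:112760405-112760704, plus strand: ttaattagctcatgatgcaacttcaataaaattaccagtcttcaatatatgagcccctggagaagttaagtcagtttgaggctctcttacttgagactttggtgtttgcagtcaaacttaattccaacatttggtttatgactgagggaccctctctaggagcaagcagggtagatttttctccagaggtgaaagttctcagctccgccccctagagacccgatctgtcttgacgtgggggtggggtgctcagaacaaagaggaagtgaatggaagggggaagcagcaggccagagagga
The Lamp1 promoter held 4 E-boxes within 61 bases of the start, at 61, 45, 28 and 15 bases before it. The Ctsd promoter held 2, at 245 and 98 bases before the start, and the Gla promoter 2, at 227 and 194 bases. The Pld4 window held none.

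Resting cDC1 of the Control library had a lysosomal profile led by lipid handling. Of 33 members measured, 6 were at least 2-fold higher and 7 at least 2-fold lower in resting cDC1 than in resting cDC2, beside 4.73% of all genes higher and 10.1% lower. The members' median log2 ratio was -0.42, against -0.27 over all measured genes. The 6 higher members were Ppt1, Naaa, Npc2, Psap, Gusb and Fuca1, of which 4 are lipid-handling proteins and 2 are glycosidases. The 7 lower members were Ctsa, Ctsz, Ctsc, Tpp1, Lamp1, Ctss and Lgmn, of which 6 are proteases.

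Ppt1, palmitoyl-protein thioesterase 1, which strips fatty acids from proteins (chromosome 4, 122836242 to 122859175, GRCm38), had 1937 CPM in resting cDC1 against 85.1 CPM in resting cDC2, 22.8-fold higher (21.3 to 24.3). Naaa, the acid amidase that cleaves N-acylethanolamines (chromosome 5, 92257659 to 92278170), had 1018 CPM against 79.1 CPM, 12.9-fold higher (12.0 to 13.8). Both genes stood far above all other classes of the series, since the highest class level elsewhere was 214 CPM for Ppt1, in Control Cd4-positive phagocytes, and 123 CPM for Naaa, in CpG Cd4-positive phagocytes. Npc2, which hands cholesterol out of the lumen, had 939 CPM in resting cDC1 against 199 CPM in resting cDC2. Psap, the precursor of the saposins that present sphingolipids to their hydrolases, had 4944 CPM against 1089 CPM. Gm2a, the activator that lifts ganglioside GM2 for cleavage by hexosaminidase A, had 2830 CPM against 1898 CPM and did not reach 2-fold.

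Among the proteases, cathepsin A (Ctsa), a carboxypeptidase that also stabilises beta-galactosidase and neuraminidase 1, had 52.5 CPM in resting cDC1 against 213 CPM in resting cDC2. Cathepsin C (Ctsc), a dipeptidyl peptidase that activates serine proteases of granules, had 122 CPM against 385 CPM, and Ctss had 670 CPM against 1494 CPM. In resting cDC1, Ctsl, Ctsd, Tpp1, Lamp1, Cd63 and Pld3 were all under 2 times the estimated free-RNA level, at 18.6, 43.8, 8.41, 30.4, 73.1 and 14.5 CPM in that order.

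Mature dendritic cells of the Control library were low in the lipid-handling genes that led resting cDC1. The mature class was not split into cDC1 and cDC2. Its Xcr1 level was 2.84 CPM with CpG, 29.4 CPM with R848 and 10.2 CPM in Control, against 656 CPM in resting cDC1. In the contrasts of this class, lineage cannot be told apart from maturity or agent. Of 32 members measured, 9 were higher and 11 lower in mature cells than in resting cDC1, beside 15% of all genes higher and 8.18% lower. Naaa had 21.7 CPM in mature cells against 1018 CPM in resting cDC1, 46.9-fold lower (36.6 to 61.0), and Ppt1 had 65.1 CPM against 1937 CPM. Cd63 had 856 CPM in mature cells against 73.1 CPM in resting cDC1, and Lgmn had 250 CPM against 16.8 CPM.

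Set against resting cDC2 instead, the mature cells of the Control library had 2 members higher (Cd63 and Lgmn) and 7 lower (Naaa, Pld4, Man2b1, Cd68, Gm2a, Grn and Lipa) of 33 measured, beside 7.88% of all genes higher and 9.27% lower. Lgmn had 250 CPM in mature cells against 42.0 CPM in resting cDC2, 5.95-fold higher (5.31 to 6.68). Cd68, a heavily glycosylated membrane protein used as a macrophage marker, had 129 CPM against 299 CPM. Of the 541 Control mature cells, 403 were in 1 cluster with 1359 CPM of Ccr7. Without the Control clusters under 2000 CPM of Ccr7, which left 138 cells, 4 members were higher and 10 lower, and Npc2 was among the higher at a log2 ratio of 2.01. No share of all genes is given for this stricter set, so its counts are not to be read as a result about the members. In the treated libraries the same contrast was wider. With CpG, 4 members were higher and 17 lower of 32, beside 13.7% of all genes higher and 21.6% lower, and with R848, 3 were higher and 13 lower of 31, beside 12.7% higher and 26.3% lower. Lgmn had 602 CPM in mature cells against 15.7 CPM in resting cDC2 with CpG, and 500 CPM against 39.3 CPM with R848.

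**Figure D3:**
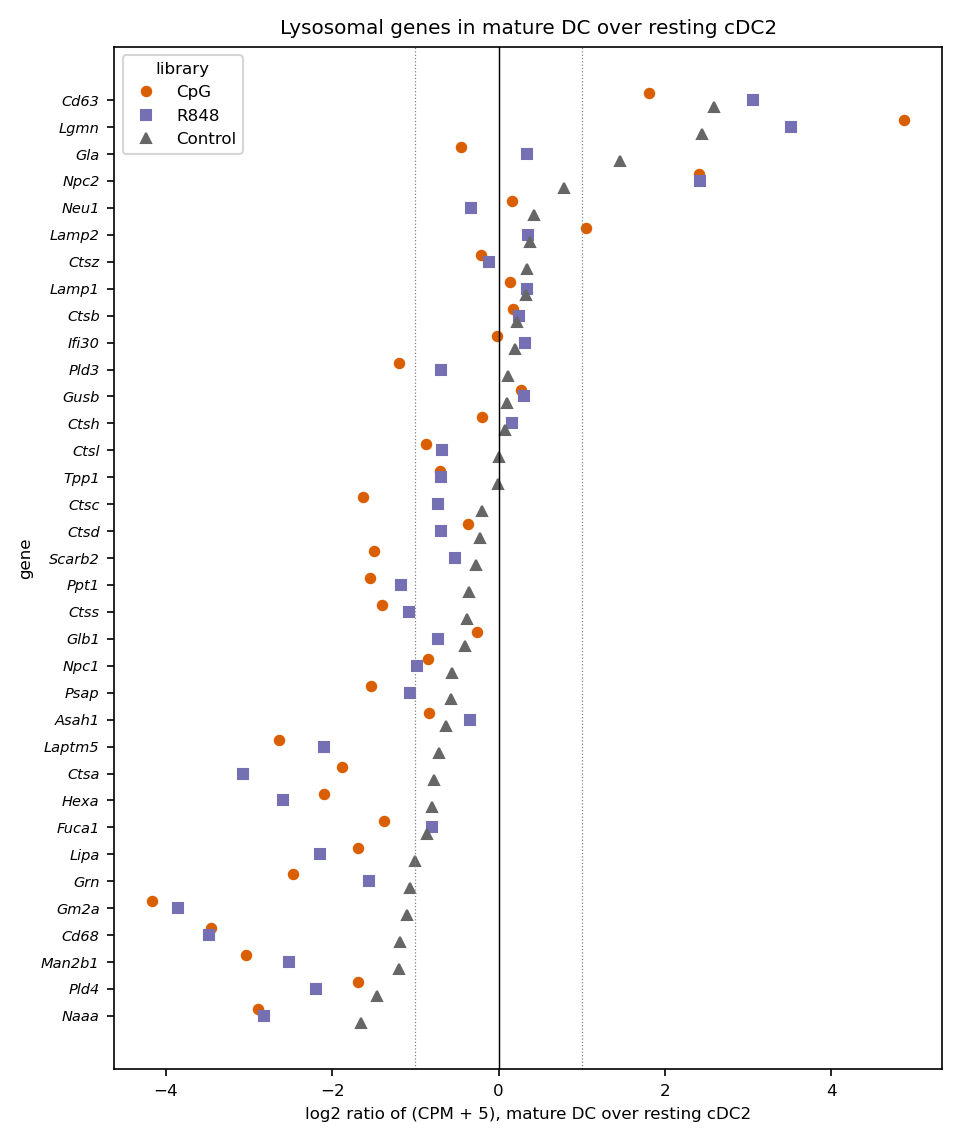
Log2 ratio of CPM + 5 in mature dendritic cells over resting cDC2 for each member except Ctsk in the CpG, R848 and Control libraries, with dotted lines at 2-fold. Lgmn and Cd63 lie to the right in all 3 libraries, whereas Gm2a, Cd68 and Man2b1 lie to the left, farther so in the treated libraries.

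After treatment, mature dendritic cells had less transcript of many members than those of the Control library. With CpG, 2 members were at least 2-fold higher and 9 at least 2-fold lower out of 32 measured, beside 10.4% of all genes higher and 9.31% lower. The members' median log2 ratio was -0.71, against 0.04 over all measured genes. With R848, 2 were higher and 8 lower of 32, beside 8.47% of all genes higher and 10.3% lower, and the medians were -0.39 for the members and -0.06 for all genes. These comparisons share the Control library, so their likeness is no independent evidence. Members lower with both agents were Gm2a, Cd68, Man2b1, Laptm5, Hexa, Ctsl and Ctsa. Against the Control clusters above 2000 CPM of Ccr7 alone, Gm2a and Man2b1 alone of these 7 passed the limit with both. Psap and Ppt1 passed the limit with CpG alone and Naaa with R848 alone, and these differences between agents did not reach 2-fold or were not measured.

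Gm2a (chromosome 11, 55098115 to 55113029) had the lowest ratio of all members in both comparisons. It stood at 64.3 CPM with CpG and 84.2 CPM with R848, against 881 CPM in Control, 13.7-fold lower with CpG (12.7 to 14.8) and 10.5-fold lower with R848 (9.74 to 11.3). With each mature cell thinned to 2000 UMIs, 9.8% of CpG cells and 10.9% of R848 cells held a Gm2a UMI, against 61.2% of Control cells. Cd68 had 19.7 CPM with CpG and 25.6 CPM with R848, against 129 CPM in Control. Laptm5, a lysosomal membrane protein of blood cells, had 84.1 CPM with CpG and 138 CPM with R848, against 358 CPM in Control. Hexa, the alpha subunit of hexosaminidase A and the enzyme that Gm2a serves, had 65.9 CPM with CpG and 43.2 CPM with R848, against 163 CPM in Control. Ctsa had 58.5 CPM with CpG and 21.9 CPM with R848, against 122 CPM in Control, and R848 was also lower than CpG, by 2.67-fold (2.32 to 3.07).

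Npc2 (chromosome 12, 84754562 to 84773152) went the other way. It stood at 1070 CPM with CpG and 1177 CPM with R848, against 346 CPM in Control, 3.09-fold higher with CpG (2.90 to 3.30) and 3.40-fold higher with R848 (3.19 to 3.63). Lgmn (chromosome 12, 102394084 to 102439813) stood at 602 CPM with CpG and 500 CPM with R848, against 250 CPM in Control. Its ratio passed the limit with CpG and lay just under it with R848, at log2 ratios of 1.25 and 0.99. The CpG call was lost when all libraries were clustered jointly. Cd63 stood at 795 CPM with CpG and 1752 CPM with R848, against 856 CPM in Control, and was higher with R848 than with CpG by 2.20-fold (2.15 to 2.25). Between the agents, 1 of 28 measured members (Cd63) was higher and 1 (Ctsa) lower with R848, beside 1.02% of all genes higher and 3.45% lower. For both genes the cluster levels of the agents overlapped. Both calls were lost with joint clustering, without doublet removal and with cells of at least 1000 genes. The Ctsa call was also lost under further settings. Ifi30, the thiol reductase that opens disulfide bonds of antigens, was among the highest members in mature cells, at 1577 CPM with CpG, 2296 CPM with R848 and 1959 CPM in Control, and passed no limit.

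The Control mature class was less mature by its markers and had a higher sum of the phagocyte markers, most of it Lyz2. All 14 mature markers reached 20 CPM in each library, and they summed to 22368 CPM with CpG, 18677 CPM with R848 and 10837 CPM in Control. The 13 phagocyte markers summed to 1655 CPM with CpG, 1588 CPM with R848 and 6639 CPM in Control, of which Lyz2 gave 772 CPM with CpG, 730 CPM with R848 and 4586 CPM in Control. Lyz2 is not limited to phagocytes here, since Control resting cDC2 had 9718 CPM of it. C1qa in mature cells stood at 95.2 CPM with CpG, 109 CPM with R848 and 180 CPM in Control. In resting cDC2 it stood close to these levels, at 97.8, 114 and 190 CPM in that order. The part of these markers in the ratios was not tested, but the ratios were recomputed against the 138 Control cells of clusters above 2000 CPM of Ccr7. Of these, 80 were in a cluster with 40.3 CPM of Xcr1 and 7.68 CPM of Plet1. The 403-cell cluster left out had 4.07 CPM of Xcr1 and 242 CPM of Plet1. The stricter set thus differed in lineage markers as well as in Ccr7, and lineage and maturity cannot be told apart in it. Gm2a then stood at 645 CPM in Control, with log2 ratios of -3.23 for CpG and -2.87 for R848. Npc2 stood at 815 CPM in Control and no longer passed the limit, at 0.39 for CpG and 0.53 for R848. Ctsa stood at 40.7 CPM in Control, so that its direction with CpG turned round to a log2 ratio of 0.47, while it stayed lower with R848 at -0.76. Calls were also lost for Ctsl with both agents, for Hexa with CpG (-0.80), and with R848 for Cd68 (-0.92), Laptm5 (-0.54), Naaa (-0.67) and Cd63 (0.71). Man2b1 passed with both, at -1.64 for CpG and -1.06 for R848. Psap, at 1055 CPM in Control, gave -1.84 for CpG and -1.23 for R848. Within the mature classes, Gm2a ran from 21.2 to 94.2 CPM over the 4 CpG clusters and from 20.2 to 141 CPM over the 6 R848 clusters, while the 3 Control clusters stood at 960, 829 and 200 CPM, the last with 58 cells and 43 UMIs. The CpG and R848 clusters thus all lay below each Control cluster. Lgmn ran from 381 to 728 CPM over the CpG clusters and from 329 to 649 CPM over the R848 clusters, above the 241 to 261 CPM of the Control clusters. Of the unnamed CpG clusters, 1 of 244 mature-like cells with 1831 CPM of Ccr7 stood at 555 CPM of Gm2a. Joining the unnamed CpG clusters that scored as mature gave 126 CPM of Gm2a with CpG, still below Control at a log2 ratio of -2.76.

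In resting cDC2 few members differed between libraries. With CpG, none of 33 measured members was higher and 1 lower than in Control, beside 2.76% of all genes higher and 1.25% lower. With R848, none of 33 was past the limit in either direction, beside 2.24% higher and 0.712% lower. The member below the limit with CpG was Lgmn, at 15.7 CPM with CpG and 39.3 CPM with R848, against 42.0 CPM in Control, and it was also the 1 of 32 members higher with R848 than with CpG, where 0.498% of all genes were higher and 0.104% lower. Cysteine proteases summed to 5701 CPM with CpG and 5417 CPM with R848, against 4234 CPM in Control. The CpG class was a single cluster with high Plet1, and 294 of the 382 R848 cells were in a like cluster, whereas the Control class held 5 clusters. Lgmn varied between cDC2 clusters. It stood at 15.7 CPM in the CpG cluster, at 15.8 CPM in the Plet1-high R848 cluster and at 127 CPM in the other R848 cluster, of 88 cells with high Cd209a, against 18.4 to 117 CPM over the 5 Control clusters. The gap between the agents was therefore carried by the 88-cell cluster. Without doublet removal both directions turned, to log2 ratios of 0.094 for CpG over Control and -0.28 for R848 over CpG, and the CpG call was lost under 5 settings in all. Against the 830 Control cells of Plet1-high clusters, Lgmn in CpG cells gave a log2 ratio of -1.15. These Control cells included a cluster of 198 cells with 822 CPM of Cd209a, against 0.290 CPM in the CpG cluster. The 2 sets were thus alike in Plet1 but not in Cd209a, and the part of that cluster in the ratio was not tested.

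In Cd4-negative phagocytes, members passed the limit against Control with R848 alone. With CpG, none of 33 measured members was at least 2-fold different from Control, beside 3.1% of all genes higher and 0.588% lower. With R848, 4 of 35 were higher (Pld4, Lgmn, Gla and Grn) and 1 lower (Gm2a), beside 5.1% of all genes higher and 1.69% lower. In Cd4-positive phagocytes the same 4 members were higher and Gm2a lower with R848, of 35 measured, beside 6.01% higher and 2.58% lower. With CpG, Gla was higher and Pld4 lower in Cd4-positive cells, of 34 measured, beside 3.2% higher and 0.685% lower. Both of these CpG calls were lost with a pseudocount of 20 CPM or a minimum of 100 CPM. The Pld4 call was also lost with joint clustering and at a Cd4 limit of 100 CPM. The members' median log2 ratio was 0.02 with CpG and -0.01 with R848 in Cd4-negative cells, where it was 0.03 and 0.09 over all measured genes. In Cd4-positive cells it was 0.05 with CpG and -0.06 with R848, where it was 0.09 and 0.15 over all measured genes.

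Pld4 (chromosome 12, 112760655 to 112768990, plus strand), whose promoter is printed above, showed the largest gap between the agents. In Cd4-negative phagocytes it stood at 21.8 CPM with CpG and 217 CPM with R848, against 45.9 CPM in Control. In Cd4-positive phagocytes it stood at 11.1 CPM with CpG and 137 CPM with R848, against 27.8 CPM in Control. R848 was above Control by 4.74-fold in Cd4-negative cells (4.32 to 5.20) and by 4.94-fold in Cd4-positive cells (4.23 to 5.79). R848 was above CpG by 9.99-fold in Cd4-negative cells (8.69 to 11.5) and by 12.4-fold in Cd4-positive cells (9.67 to 16.1). With each cell thinned to 2000 UMIs, a Pld4 UMI was found in 3.1% of CpG, 30.2% of R848 and 8.2% of Control Cd4-negative cells. Unthinned, the shares were 20.2% with CpG, 64.0% with R848 and 28.4% in Control. In the R848 Cd4-negative class, all 4 clusters were above the main Control clusters, at 116, 309, 330 and 106 CPM. The Control class had clusters at 36.5 and 41.9 CPM and a cluster of 57 cells, led by Ccl6, Ccl9 and Lpl, at 221 CPM.

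Grn, progranulin, the precursor of the granulins (chromosome 11, 102430315 to 102437048), stood at 431 CPM with CpG and 620 CPM with R848, against 294 CPM in Control, in Cd4-negative phagocytes. In Cd4-positive phagocytes it stood at 353 CPM with CpG and 679 CPM with R848, against 222 CPM in Control, 3.06-fold higher with R848 (2.89 to 3.24). Gla (chromosome X, 134588149 to 134601125) stood at 19.4 CPM with CpG and 31.8 CPM with R848, against 10.6 CPM in Control, in Cd4-negative phagocytes. In Cd4-positive phagocytes it stood at 50.1 CPM with CpG and 97.0 CPM with R848, against 17.9 CPM in Control, 2.79-fold higher with CpG (2.26 to 3.47) and 5.40-fold higher with R848 (4.46 to 6.59). Both genes were thus ordered R848, CpG, Control in each phagocyte class, with intervals that did not overlap.

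Lgmn in phagocytes was low in all libraries, at 12.2 CPM with CpG and 31.6 CPM with R848, against 6.32 CPM in Control, in the Cd4-negative class. In the Cd4-positive class it stood at 12.2 CPM with CpG and 42.3 CPM with R848, against 8.97 CPM in Control. Its CpG levels were under 2 times the estimated free-RNA level. Over the R848 Cd4-negative clusters it stood at 3.64, 66.9, 35.6 and 69.5 CPM, and the lowest of these was the largest cluster, of 505 cells. In Control the main clusters stood at 3.12 and 2.19 CPM and the 57-cell cluster at 97.8 CPM. Gm2a stood at 830 CPM with CpG and 617 CPM with R848, against 1332 CPM in Control, in Cd4-negative cells. In Cd4-positive cells it stood at 804 CPM with CpG and 596 CPM with R848, against 1343 CPM in Control, so it was below Control in both treated libraries and passed the limit with R848. In the Cd4-negative class, its clusters ran from 746 to 892 CPM with CpG and from 456 to 716 CPM with R848, against 896 to 1699 CPM in Control.

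Between the agents, Pld4 and Lgmn were higher with R848 in both phagocyte classes. The Lgmn call in Cd4-negative cells was lost with joint clustering, at Leiden resolution 2 and without doublet removal, among other settings. None of the 35 members measured was lower in Cd4-negative cells, beside 2.58% of all genes higher and 0.908% lower. Naaa alone was lower in Cd4-positive cells, also of 35, beside 2.22% higher and 1.01% lower. Naaa had 56.1 CPM with R848 against 123 CPM with CpG there. Ctsb, cathepsin B, was close to the limit in Cd4-positive cells, at 1978 CPM with CpG and 3150 CPM with R848, against 1672 CPM in Control, which put R848 1.88-fold above Control (1.84 to 1.93).

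**Figure D4:**
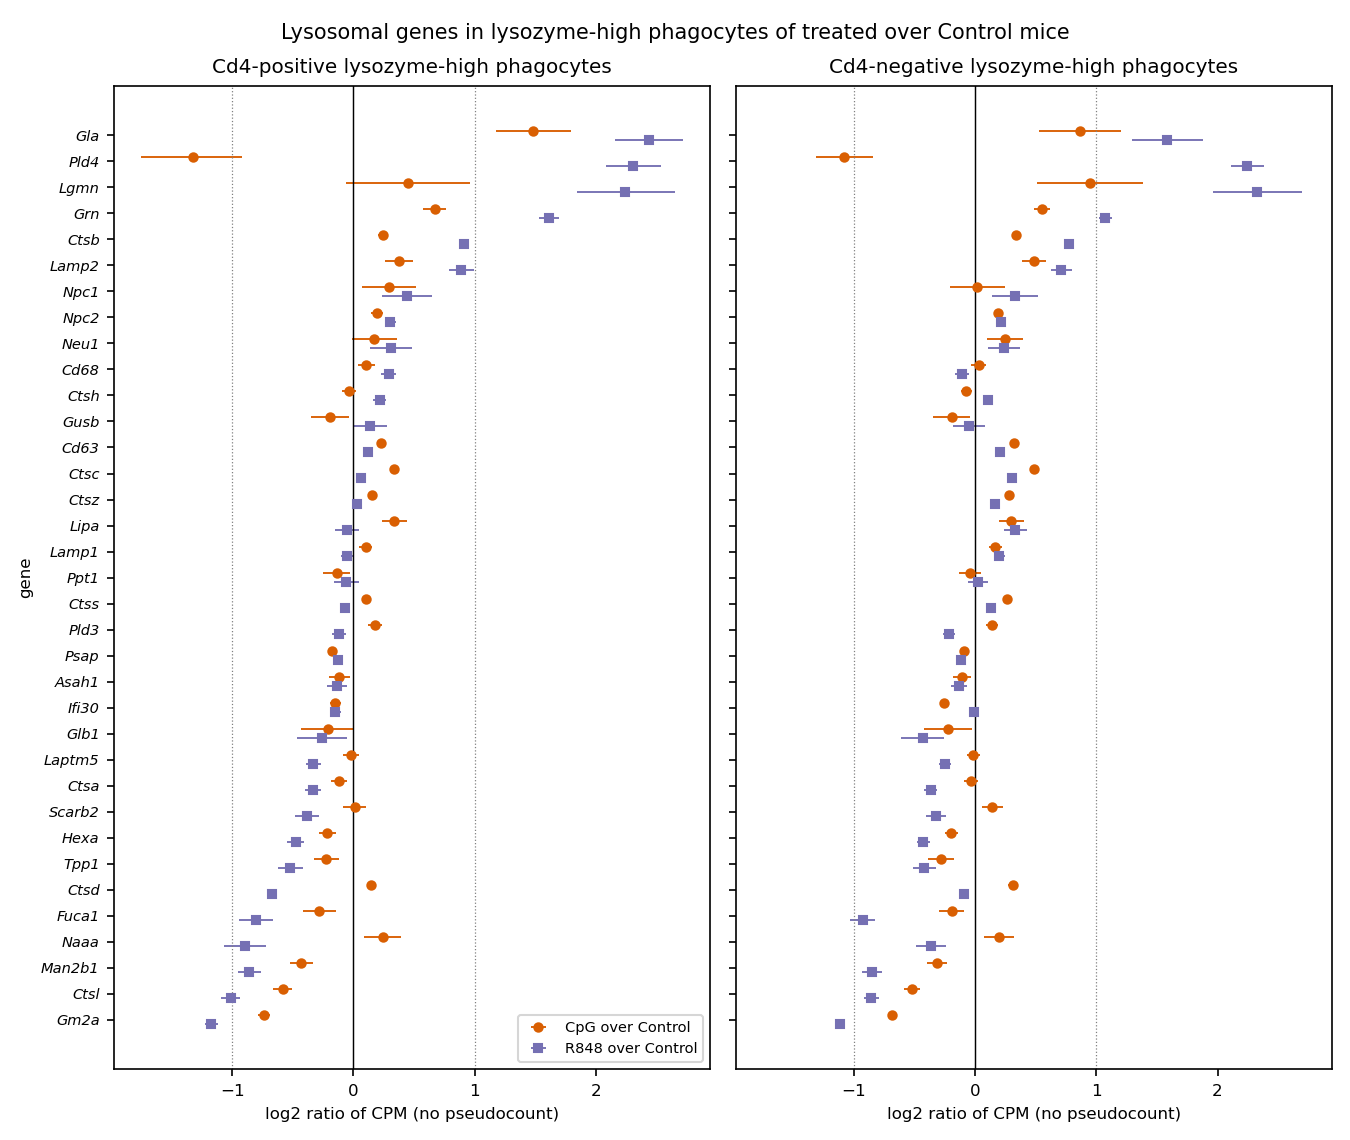
Log2 ratio of CPM to Control for each member except Ctsk in Cd4-positive and Cd4-negative phagocytes, for CpG and R848, with 95% counting intervals and dotted lines at 2-fold. Pld4, Lgmn, Gla and Grn lie to the right with R848 in both classes and Gm2a to the left, while most members lie between the dotted lines.

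The R848 Cd4-negative class included a cluster of 298 cells with 951 CPM of Ccr7. The mature markers summed to 1227 CPM with CpG, 2632 CPM with R848 and 1123 CPM in Control in this class. Without that cluster, Pld4 stood at 188 CPM with R848, Lgmn at 30.5 CPM, Grn at 641 CPM and Gm2a at 660 CPM. With Gla, at a log2 ratio of 1.24, all 5 still passed the limit against Control. Phagocyte clusters were taken by their Lyz1 level alone. Of the Cd4-negative clusters, 1 of 413 CpG cells and 2 of 573 and 57 Control cells had a single marker of another class, Ccr2 or Mgl2, and none of their own among the 10 leading genes. Without these 3 clusters, which left 291 CpG and 449 Control cells, Pld4, Lgmn and Grn passed the limit with R848, at log2 ratios of 2.24, 2.35 and 1.15. Gla lay just under it at 0.99, and Gm2a no longer passed, at -0.53. The Grn call against Control in this class was also lost with joint clustering and with scaling by the median ratio over genes. The Lgmn call against Control was lost with joint clustering and at Leiden resolution 2. A pseudocount of 20 CPM or a minimum of 100 CPM removed the Lgmn and Gla calls. The phagocyte markers themselves were lower with R848, summing in Cd4-negative cells to 98255 CPM with CpG, 75341 CPM with R848 and 99406 CPM in Control. Their part in the ratios was not tested.

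**Figure D5:**
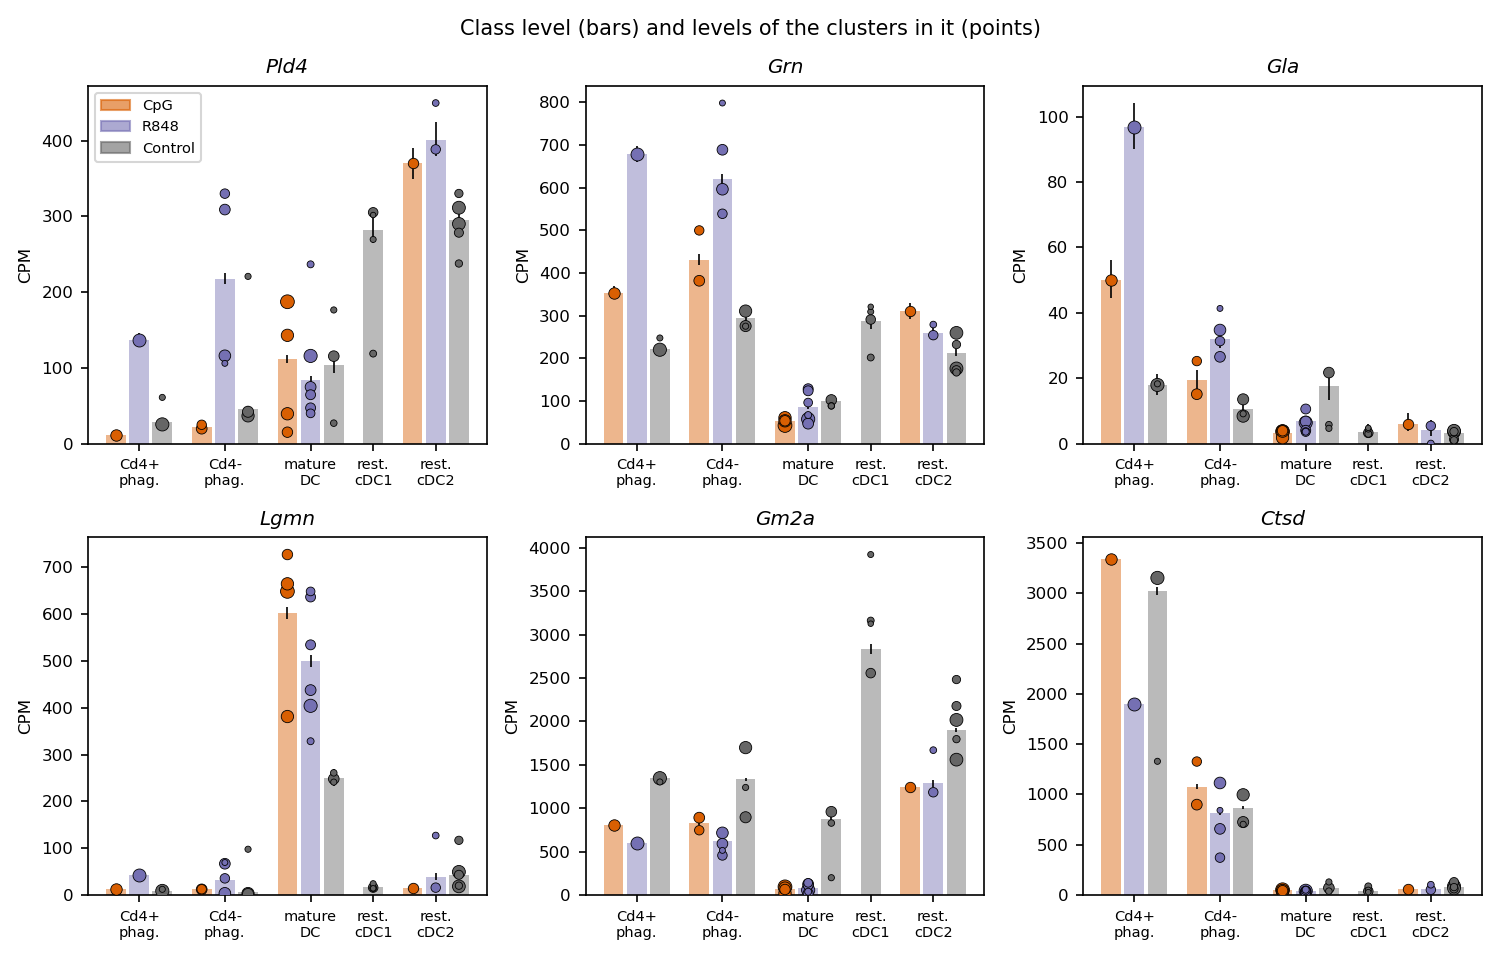
Level (CPM) of Pld4, Grn, Gla, Lgmn, Gm2a and Ctsd in each class and library, with bars for the class and its 95% counting interval and points for single clusters, sized by their cells. The R848 points for Pld4 lie above those of CpG in both phagocyte classes, and the 57-cell Control cluster lies apart at 221 CPM.

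Whole libraries, which held the classes in unequal numbers, were also set against Control. With CpG, Lgmn was higher and Gm2a, Ppt1, Naaa, Fuca1 and Man2b1 lower, of 34 measured, beside 8.61% of all genes higher and 2.12% lower. With R848, Lgmn and Gla were higher and the same 5 members lower, of 35 measured, beside 6.93% higher and 2.65% lower. Lgmn stood at 270 CPM with CpG and 175 CPM with R848, against 39.7 CPM in Control, and mature dendritic cells held 8485 of its 10975 UMIs with CpG, 6230 of 7610 with R848 and 737 of 1603 in Control. Mature cells made up 47.8% of CpG, 43.0% of R848 and 10.7% of Control cells. Ppt1 stood at 107 CPM with CpG and 131 CPM with R848, against 297 CPM in Control, and resting cDC1, its highest class, made up 9.31% of Control cells and were not found in the treated libraries. Unnamed cells of the CpG library included a cluster of 46 mature-like cells with high Xcr1, in which Ppt1 stood at 690 CPM and Naaa at 568 CPM. In these sums, fewer cells of a class and less RNA per cell cannot be told apart.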

How the data were processed

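The authors deposited UMI counts of each gene in each barcode, not normalised, made with Cell Ranger 2.0.0 on mm10, per the submitters' processing notes. No source used here names the annotation release. Coordinates are from GENCODE M21 and promoters from RefSeq.

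Cells with at least 500 genes and at most 10% mitochondrial UMIs were kept, and 202 CpG, 209 R848 and 225 Control predicted doublets were removed (2 simulated per cell, 50 neighbours, 0.8% per 1000 cells). Each library was clustered without the members (2000 variable genes, 30 components, 15 neighbours, Leiden resolution 1) in Python 3.11.15 with leidenalg 0.10.2. Clusters scoring highest as cells outside the classes (marker score of at least 1.5) or as proliferating (at least 1) were left out first, among them 5 with over 5000 CPM of Lyz1: 60 CpG, 101 and 53 R848 and 142 Control cells that were proliferating, and 86 Control cells that scored as plasmacytoid. Of the rest, clusters with at least 5000 CPM of Lyz1 were lysozyme-high phagocytes, split at 50 CPM of Cd4. Those with at least 1000 CPM of Ccr7 and a mature marker score above 0 were mature dendritic cells, and the rest went to the higher of the cDC1 and cDC2 scores. A dendritic cell cluster stayed unnamed where another class had more markers than its own among its 10 leading genes. This was not asked of the phagocytes. The Lyz1, Ccr7 and score limits were set after the data were seen, and the members and lists were chosen with earlier results of these data known.

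A member was measured at 20 CPM and 20 UMIs in the higher group, and called at a 2-fold ratio of CPM + 5. All members could be named, with values per library for those past the limit and for the 5 highest of a class, and of the other lysosomal lists up to 4 genes per comparison and direction. Intervals are 95% and exact (Poisson for levels, conditional binomial for ratios). A count of 0 allows 3 counts. The calling was tested on simulated data. With 1 library per group no p-value was computed.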

Additional observations from a re-analysis of the deposited data

Results flagged for a closer look

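Lgmn lay above Control in 1 class and below it in another with CpG. The log2 ratio of CpG over Control was 1.25 in mature dendritic cells, with 602 CPM with CpG and 250 CPM in Control, and -1.19 in resting cDC2, with 15.7 CPM with CpG and 42.0 CPM in Control. With 1 library per group the difference was not tested. The cDC2 value rests on 54 UMIs with CpG and 509 UMIs in Control. Without doublet removal the cDC2 ratio was 0.094. The CpG cDC2 class was a single cluster, whereas Lgmn varied between the Control cDC2 clusters. The call in mature cells was lost when all libraries were clustered jointly.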

How the results depend on the processing

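No paired analysis was possible because each group had 1 library, and for the same reason no replicate could be left out. The 19 counts of members past 2-fold were recomputed under alternatives that gave 275 values, of which 232 stayed within 1.5 times the reported count. The other 43 follow, by setting, and their cause was not tested. With a pseudocount of 20 CPM, the whole-library count of CpG over Control was 3. The cDC2 counts were 0 for CpG over Control and 0 for R848 over CpG, and the mature count of R848 over CpG was 1. The Cd4-negative counts were 3 for R848 over Control and 1 for R848 over CpG, and the Cd4-positive counts 0 for CpG over Control and 1 for R848 over CpG. A pseudocount of 1 CPM gave 1 for CpG over Control in Cd4-negative cells. A minimum of 100 CPM gave 0 for CpG over Control and 0 for R848 over CpG in cDC2, and 1 for R848 over CpG in mature cells. It gave 3 for R848 over Control and 1 for R848 over CpG in Cd4-negative cells, and 0 for CpG over Control and 3 for R848 over Control in Cd4-positive cells. Subtracting free RNA gave 2 for CpG over Control and 1 for R848 over Control in cDC2. Clustering with the members gave 0 for CpG over Control and 0 for R848 over CpG in cDC2. Leiden resolution 2 gave 0 in cDC2, 1 in mature and 1 in Cd4-negative cells for R848 over CpG. Joint clustering gave 0 in cDC2, 0 in mature and 1 in Cd4-negative cells for R848 over CpG, 3 for R848 over Control in Cd4-negative and 1 for CpG over Control in Cd4-positive cells. Without doublet removal, CpG over Control gave 0 in cDC2 and 1 in Cd4-negative cells, and R848 over CpG gave 0 in cDC2, 1 in mature and 1 in Cd4-negative cells. Cells of at least 1000 genes gave 0 in cDC2 and 0 in mature cells for R848 over CpG. A Cd4 limit of 100 CPM gave 1 for CpG over Control in Cd4-positive cells. Of the alternatives chosen after seeing the data, joining unnamed clusters gave 0 for CpG over Control and 0 for R848 over CpG in cDC2, and 6 for CpG over Control and 5 for R848 over CpG in mature cells. Leaving out mature clusters under 2000 CPM of Ccr7 gave 5 for R848 over Control in mature cells and 14 for mature over cDC2 in Control. Leaving out phagocyte clusters led by a marker of another class gave 3 for R848 over Control in Cd4-negative cells. Of 1677 recomputed values of the 115 ratios past 2-fold, 1031 lay within the counting interval of the reported ratio, 642 outside it in the same direction and 4 in the opposite direction. These 4 were Lgmn without doublet removal in cDC2, at 0.094 for CpG over Control and -0.28 for R848 over CpG, and Ctsa in the stricter mature class, at 0.47 for CpG over Control and -0.33 for mature over cDC1 in Control. The 2-fold limit was still passed by 1539 of the 1677 values. Low members are limited by depth: Ctsk and Ctse were measured in no class, and Gla in resting cDC2 rests on few UMIs.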

Other observations

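Other lysosomal genes, 109 in 5 lists (V-ATPase, further hydrolases, transporters and membrane proteins, protease inhibitors, and sorting and transcriptional regulators), showed the same contrast between phagocytes and resting cDC2 in the Control library. Of 64 measured, 20 were at least 2-fold higher and 4 at least 2-fold lower in Cd4-negative phagocytes, beside 10.3% of all genes higher and 9.37% lower. The higher genes include Lyz1, whose level defined the phagocytes, and Lyz2, one of their markers. Those calls followed from how the class was named and are no support for the contrast. Acp2, a lysosomal acid phosphatase, had 192 CPM in Cd4-negative phagocytes against 26.0 CPM in resting cDC2, and Cst7, an inhibitor of cysteine cathepsins, had 1213 CPM against 58.3 CPM. Cst3, the inhibitor cystatin C, ran the other way, at 834 CPM against 3500 CPM, and was highest in resting cDC1 at 29995 CPM. Atp6v0d2, a subunit of the proton pump, marked the Cd4-positive class beside Ctsd. It had 110 CPM with CpG, 146 CPM with R848 and 96.4 CPM in Control in Cd4-positive cells, against 3.96 CPM with CpG, 23.5 CPM with R848 and 4.24 CPM in Control in Cd4-negative cells. Slc11a1, a metal transporter of the phagosome membrane, had 52.6 CPM with CpG, 62.5 CPM with R848 and 31.1 CPM in Control in Cd4-positive cells, against 10.9 CPM with CpG, 18.3 CPM with R848 and 5.80 CPM in Control in Cd4-negative cells.

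In mature dendritic cells, 7 of 57 of these genes were higher and 10 lower with CpG than in Control, and 9 of 56 were higher and 10 lower with R848. The lower genes with both agents include the phagocyte markers Lyz1 and Lyz2. The shares of all genes were 10.4% higher and 9.31% lower with CpG, and 8.47% higher and 10.3% lower with R848, so the higher counts lie close to the background with CpG. Protease inhibitors were the list with the highest median, at a log2 ratio of 0.95 with CpG and 1.23 with R848 over 5 genes. This list also holds serpins that inhibit granzymes, so its median does not describe lysosomal proteins alone. Serpinb6b, a serpin of the granzyme-inhibitor clade, had 1064 CPM with CpG and 1724 CPM with R848, against 530 CPM in Control. Serpinb9, an inhibitor of granzyme B, had 919 CPM with CpG and 1226 CPM with R848, against 380 CPM in Control. Plbd1, a phospholipase B-like protein, had 24.6 CPM with CpG and 39.0 CPM with R848, against 261 CPM in Control. The V-ATPase list moved little, with 1 of 14 genes higher and 1 lower with CpG, and none higher and 1 lower with R848. In Cd4-negative phagocytes none of 62 of these genes passed 2-fold with CpG, and 1 of 64 was higher and 1 lower with R848, where all genes gave 3.1% higher and 0.588% lower with CpG and 5.1% higher and 1.69% lower with R848.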
